A study of Mus musculus with 6 samples.

Results

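Border macrophages of the cerebral cortex were selected from the marker genes of single cells, and 91 of 17717 cells that passed the filters met the rule (0.514%, exact 95% binomial interval 0.414 to 0.630%). A cell was taken when it had at least 1500 UMIs (unique molecular identifiers, counts of captured RNA molecules), at least 200 genes and at most 10% mitochondrial UMIs, and when Mrc1, Cd163, Pf4, Lyve1, F13a1 and Cbr2 together made up at least 0.1% of its UMIs with at least 3 of the 6 detected. It also had to show fewer than 3 of 6 monocyte genes (Ccr2, Ly6c2, Chil3, Plac8 and Fn1 among them), and under 0.1% of its UMIs from P2ry12, Tmem119 and Siglech (microglia) and from Cldn5 and Flt1 (endothelium). The values of these 17 genes chose the cells, so they are given as a description only.

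Border-associated macrophages are long-lived tissue macrophages that sit outside the brain parenchyma, around penetrating vessels, in the meninges and in the choroid plexus. They take up material from the perivascular fluid through scavenger and lectin receptors, and in mice they are told from microglia by Mrc1 (the mannose receptor CD206), Lyve1 (a hyaluronan receptor), Cd163 (the haemoglobin-haptoglobin scavenger receptor) and Pf4 (the chemokine CXCL4). A subset that presents antigen carries MHC class II in place of Lyve1.

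The tissue came from male mice of 8 to 12 weeks, all heterozygous for RGS5::GFP, a strain in which GFP replaces 1 allele of Rgs5 and labels pericytes. Permanent occlusion of the middle cerebral artery was followed by isolation of live cells, depleted of neurons, from the cortex of the stroke side (ipsi) and of the matching opposite area (contra) at 1, 12 and 24 h, with 1 library per side and time point. Single-cell sequencing used 3 mice, so the 6 libraries are not 6 independent animals. No sham or unoperated library was among the 6 samples, and the contralateral tissue of operated mice is the only reference. The 12 h libraries were made with a dual index kit and the others with a single index kit, so kit cannot be told apart from the 12 h time point. The paper names a NovaSeq sequencer for the 1 and 12 h samples and a HiSeq for the 24 h samples. Sequencer thus cannot be told apart from the 24 h time point. The deposited matrix marks each barcode with a library number from 1 to 6, and none of the sources used here says which number is which side or time. The libraries are therefore given by number, no comparison between hemispheres or times was made, and no p-value was computed, since cells of 1 library are not replicates. All intervals below are exact 95% intervals that cover counting error only.

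The members numbered 3, 3, 30, 24, 14 and 17 in libraries 1 to 6. As a share of the cells these were 0.252%, 0.214%, 0.498%, 0.552%, 0.728% and 0.600%, and the binomial intervals of all 6 libraries overlapped. The lowest interval ran from 0.0442 to 0.624% (library 2) and the highest from 0.399 to 1.22% (library 5). In comparison, monocyte-marked cells (3 or more of the 6 monocyte genes) numbered 0, 0, 3, 84, 1 and 141 in the same order. Microglia-marked cells numbered 316, 411, 3464, 1910, 874 and 785.

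**Figure D1:**
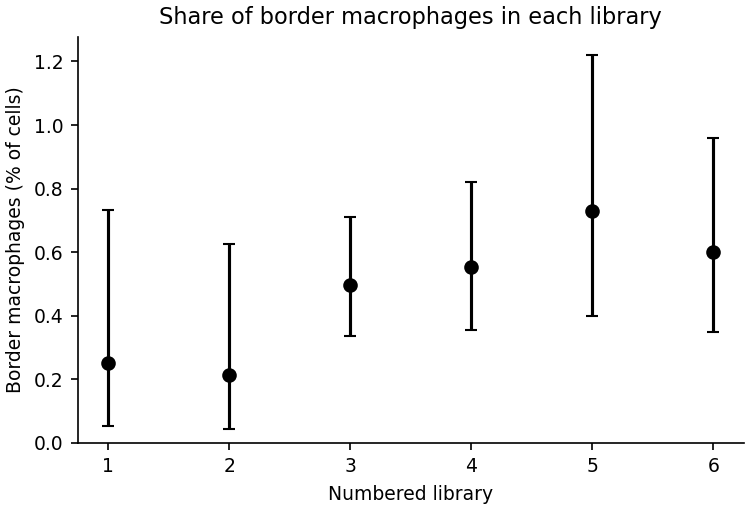
Share of border macrophages among the cells of each numbered library (y axis, percent) with exact 95% binomial intervals (bars); the x axis is the library number, which has no named condition. The 6 intervals overlap, from a share of 0.214% in library 2 to 0.728% in library 5.

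The 91 cells held 521492 UMIs, with a median of 5333 UMIs (1575 to 25310) and 1875 genes per cell. The median depth was lowest in library 3, at 3816 UMIs. Among cells, 27 barcode sequences occurred in more than 1 library, 1 member carried such a sequence, and no sequence was shared between members. No member was called a doublet. Other cell types were present in a few members: 1 cell of library 3 carried at least 0.5% of its UMIs from pericyte genes, 1 cell of library 3 from haemoglobin genes and 1 cell of library 4 from oligodendrocyte genes. 1 cell held 747 of the 748 UMIs of Hbb-bs in the members of library 3.

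The 6 marker genes are described first, and their presence was set by the rule. The place of the cells in the tissue was not measured, and perivascular cells cannot be told apart from meningeal ones here. Levels are given as CPM, UMIs scaled to a common total of 1000000 per cell kind. Levels not tied to a library are from UMIs summed over all 6 libraries. Pf4 stood at 2815 CPM (2673 to 2963) over all members and was detected in 88 of them. Its level was 1997, 7063, 2875, 2544, 1816 and 3333 CPM in libraries 1 to 6, against 0.734 CPM in microglia-marked and 617 CPM in monocyte-marked cells. Without cells that had a monocyte gene it was at 1632 CPM in library 4, then the lowest, and at 4063 CPM in library 6. Mrc1 was at 2228 CPM (2102 to 2360), likewise in 88 cells, and ranged from 1675 CPM in library 6 to 4077 CPM in library 2. Without cells that had a monocyte gene, library 6 was at 2531 CPM and library 1, at 1997 CPM, was lowest. F13a1, a transglutaminase subunit of clotting factor XIII, was at 1064 CPM in 87 cells. Libraries 1 and 2, with 3 cells each, had the widest intervals.

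Lyve1 was found in 46 members, at 660 CPM (592 to 733), and was highest in library 4 with 1202 CPM and lowest in library 6 with 223 CPM. Without cells that had a monocyte gene library 6 was at 396 CPM, and library 1 was lowest with 242 CPM. Cd163 was found in 63 members, at 596 CPM, and library 6 was lowest with 264 CPM against 588 to 1150 CPM in the other libraries, and lowest also without those cells (430 CPM). Cbr2, a carbonyl reductase, was found in 69 members at 497 CPM. Of the members, 17 showed 3 of the 6 markers, 9 showed 4, 36 showed 5 and 29 showed all 6. Thinned to 1000 UMIs per cell, 79.1% of members had an Mrc1 UMI, against 0.0362% of oligodendrocyte-marked cells, which should lack the gene (96.7% and 0.181% unthinned). Oligodendrocyte-marked cells had at least 0.1% of their UMIs from Mog, Mag and Mobp. Like microglia-marked cells, they had to hold under 0.1% from the 6 marker genes. Their low levels of these genes were thus partly set by definition and are no independent measure of specificity. The 6 genes took a median of 0.763% of the UMIs of a member. Just inside the threshold lay cells of 0.102%, 0.122% and 0.137%, and just outside it cells of 0.0950%, 0.0907% and 0.0862%.

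Monocyte genes were rare but uneven. In 81 members none of the 6 was detected, in 7 there was 1 and in 3 there were 2, and a further 23 cells fell outside the rule through these genes alone. These 23 cells could be among the monocyte-marked cells, whose definition set no upper limit on the 6 marker genes. Of the 10 members with a monocyte gene, 6 were among the 17 of library 6, and the rest were 1 in library 3, 1 in library 4 and 2 in library 5. Ly6c2 and Chil3 had no UMI in any member, which allows up to 7.07 CPM. In 9 members, 4 of them in library 6, Cd163, Lyve1 and Cbr2 were all undetected, and these cells rest on Mrc1, Pf4 and F13a1. Monocyte-marked cells also held the last 2 (617 and 494 CPM), and the part of the 23 cells in these levels was not tested. Many results by library are therefore also given for the 81 cells without a monocyte gene. Dendritic cell genes summed to 115 CPM, of which Cd209a gave 63.3 CPM, against 1502 CPM in dendritic-marked cells.

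**Figure D2:**
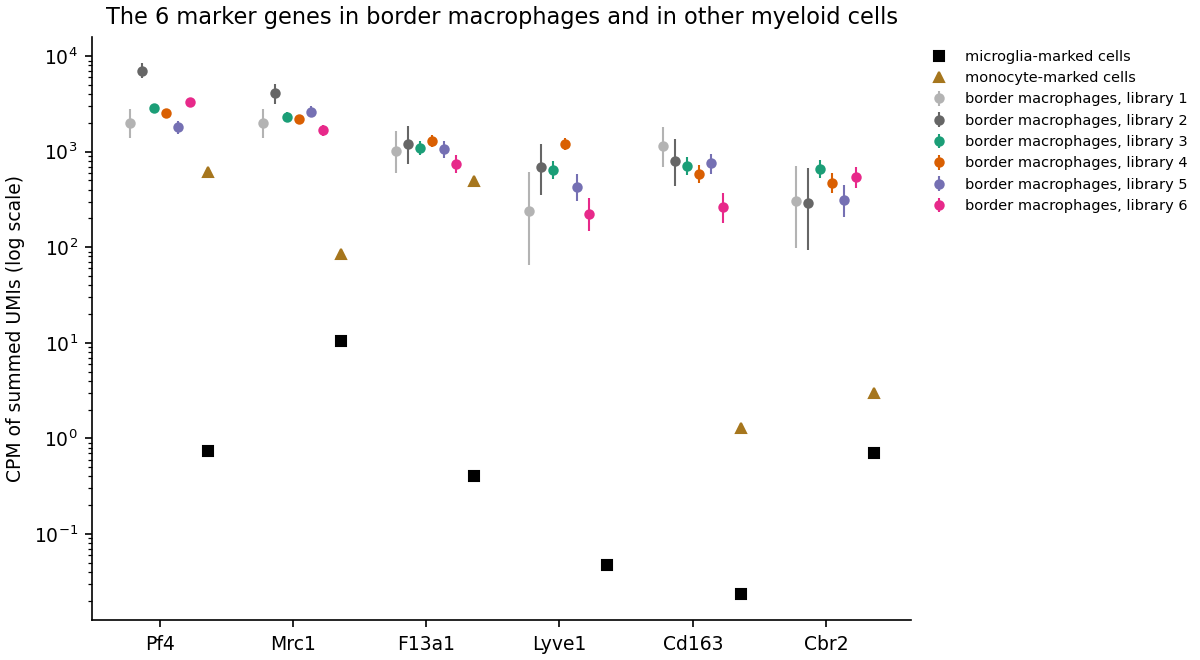
Levels of the 6 marker genes (y axis, CPM of summed UMIs, log scale) in the border macrophages of each library (circles with exact 95% Poisson intervals), in microglia-marked cells (squares) and in monocyte-marked cells (triangles), each over all libraries; Lyve1 had no UMI in monocyte-marked cells and has no triangle. Pf4 and F13a1 in monocyte-marked cells lie closest to the members, at 617 and 494 CPM.

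The promoters of the 3 most abundant markers are shown because these genes are expressed together in the same cells. Each line gives the 250 bases before the transcription start in GRCm38.p6 (RefSeq), 5′ to 3′ on the strand of the gene. They lie at chr5:90772185-90772434 (plus strand, Pf4), chr2:14229164-14229413 (plus strand, Mrc1) and chr13:37050245-37050494 (minus strand, F13a1). Capitals mark GAGGAA or its reverse complement TTCCTC, the core bound by PU.1-type factors of the myeloid lineage. The MAF half-site TGCTGA, or TCAGCA on the other strand, was searched too and could share letters with it.
Pf4: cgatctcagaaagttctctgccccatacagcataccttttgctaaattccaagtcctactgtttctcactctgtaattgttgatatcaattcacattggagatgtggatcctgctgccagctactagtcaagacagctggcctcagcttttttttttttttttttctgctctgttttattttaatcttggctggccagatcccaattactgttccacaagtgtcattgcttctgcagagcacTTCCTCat
Mrc1: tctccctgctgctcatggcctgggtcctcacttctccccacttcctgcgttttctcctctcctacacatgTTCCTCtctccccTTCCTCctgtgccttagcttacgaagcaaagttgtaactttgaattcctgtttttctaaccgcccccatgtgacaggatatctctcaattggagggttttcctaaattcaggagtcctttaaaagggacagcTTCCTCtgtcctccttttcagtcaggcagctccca
F13a1: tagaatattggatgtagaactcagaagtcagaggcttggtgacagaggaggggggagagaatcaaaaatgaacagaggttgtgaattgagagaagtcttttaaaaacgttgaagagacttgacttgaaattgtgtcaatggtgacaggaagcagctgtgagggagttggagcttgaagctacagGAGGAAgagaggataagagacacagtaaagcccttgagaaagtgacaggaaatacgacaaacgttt
The PU.1-type core occurred 3 times before Mrc1, 1 time before Pf4 and 1 time before F13a1, and no MAF half-site was in these windows. Cbr2 had 1 core, and Cd163 and the window before another F13a1 start, at chr13:37049214-37049463, had none. Of all 32851 promoters of the same length, 23.3% held the PU.1-type core and 16.1% the MAF half-site. A match describes the letters and not a bound site. Spi1, which encodes PU.1, was at 316 CPM in border macrophages and 373 CPM in microglia-marked cells, and Maf was at 1643 and 850 CPM.

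The first comparison asked how border macrophages differed from microglia, the parenchymal macrophages. The log2 ratio of CPM + 10 was taken within a library and averaged over libraries 3 and 4, which held at least 20 cells of both kinds. A gene was called at a mean of at least 1 on the log2 scale with the same sign in both libraries. Levels not tied to a library are over all 6 libraries, so their ratio can differ from the called one. Of 3749 genes with at least 50 CPM in either kind, 319 (8.51%) were higher and 632 (16.9%) lower in border macrophages. A gene nearly absent from either kind could pass this filter only through the other, where it was high. Counts from marker lists therefore describe the cells and do not test the rule. The median log2 ratio of all genes tested was -0.25. Without the 10 members that had a monocyte gene, 346 of 3770 genes (9.18%) were higher and 626 (16.6%) lower.

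Of 25 further border macrophage genes, 20 were tested, and 18 were higher and none lower. Their median log2 ratio was 3.61. Ms4a7, a tetraspan membrane protein of border macrophages, stood at 1140 CPM in library 3 and 534 CPM in library 4, against 0.107 and 0.280 CPM in the microglia of these libraries (log2 ratios of 6.83 and 5.73). Dab2, an adaptor of clathrin-mediated endocytosis, was at 1196 and 1282 CPM against 11.9 and 31.9 CPM. Stab1, a scavenger receptor, was at 761 CPM over all members against 182 CPM. Selenop and Hpgd were the members of the list tested and not called, with log2 ratios of 0.54 and 0.07.

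Of 12 microglia genes outside the rule, 11 were lower and none higher. Sall1, the transcription factor of microglial identity, had 2 UMIs in the members, both in 1 cell (3.84 CPM against 235 CPM). Cx3cr1, the fractalkine receptor, was at 324 CPM against 3582 CPM. Cst3, the protease inhibitor cystatin C, was at 5996 CPM in members against 50296 CPM. Fcrls was the exception, at 947 CPM against 1619 CPM (log2 ratio of -0.67). The remaining genes with the lowest ratios were Selplg, Olfml3, Nav3, Serpine2, Golm1, Adgrg1 and Slc2a5, with mean log2 ratios between -5.11 and -4.34.

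The genes with the highest ratios were Cxcl2, Ccl7, Ms4a7, Ifi207, Cd74, Ifi203, Dab2, Cd38, H2-Eb1, H2-Aa, Apoe and Lgals1, with mean log2 ratios from 6.51 down to 5.04. Apoe, the main lipid carrier of the brain, took 27431 CPM of the members' UMIs. In libraries 3 and 4 its level was 31455 and 18743 CPM, against 740 and 577 CPM in microglia. Lyz2, lysozyme, was at 6085 CPM against 198 CPM. Of 16 lipid and lysosome genes tested, 4 were higher and 6 lower, and the lower ones included Ctsd, the protease cathepsin D (1599 against 7773 CPM), and Trem2, a lipid receptor (564 against 2092 CPM).

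Most chemokines were higher in border macrophages. Of 15 on the list, 13 were tested, 10 were higher and none was lower, with a median log2 ratio of 2.17. Cxcl2, a neutrophil attractant, was at 6173, 0, 4316, 7545, 4440 and 6428 CPM in libraries 1 to 6, while microglia had 58.5 CPM. It was carried by 40 of the 91 cells, and 1 cell held 87.3% of its UMIs in library 1 and another 55.6% in library 5. Without cells that had a monocyte gene it was at 4184 CPM in library 6. Ccl7 (1737 CPM in 41 cells against 15.6 CPM) and Ccl2 (2249 CPM in 50 cells against 323 CPM), both ligands of the monocyte receptor CCR2, were higher as well. Library 4 weighed on both, and without it their levels were 1063 and 1283 CPM. Ccl24, a ligand of CCR3, was at 805 CPM against 7.97 CPM. Ccl4 was not called, at 2549 and 3286 CPM. The chemokines together took a median of 1.15% of the UMIs of a member, from 0 to 13.5%.

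Cytokines were mixed, with 3 of 9 higher (Tnf, Il1b and Osm) and 2 lower (Il1a and Csf1). Tnf was at 368 CPM in 49 cells against 96.2 CPM. Il1b was at 214 to 949 CPM in libraries 3 to 6 and 0 in library 2, while its 5386 CPM in library 1 came from 2 of 3 cells, 1 of which held 83.2% of the UMIs. Without cells that had a monocyte gene Il1b was at 364 CPM in library 5 and 448 CPM in library 6 (565 and 949 CPM with them). Of the 18 immediate-early genes, 10 were higher and none lower, with a median log2 ratio of 1.14. Fos was at 5053 CPM against 2373 CPM, and Dusp1, a MAP kinase phosphatase, at 2443 against 961 CPM. The share of these genes in single members ran from 0 to 15.5% of UMIs with a median of 3.91%. The sources describe enzymatic digestion of the tissue, and its part in these levels was not tested. Without members that had a monocyte gene, 12 of the 18 immediate-early genes were higher. Jun and Klf4 were the added ones and hardly moved, with log2 ratios of 0.996 and then 1.03, and of 0.971 and then 1.003. Heat-shock chaperones had 3 of 12 higher (Hspa1a, Hspa1b and Dnajb1) and 1 lower.

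Of 12 class II antigen presentation genes, 8 were tested, 4 were higher than in microglia and 2 were lower, and the higher ones were carried by a minority of the cells. Cd74, the invariant chain, was at 3371 CPM against 82.9 CPM, H2-Eb1 at 871 against 15.0 CPM, H2-Aa at 848 against 16.5 CPM and H2-Ab1 at 836 against 23.8 CPM. These levels were uneven by marker number, and in the 74 members with 4 or more of the 6 markers Cd74 was at 2253 CPM and H2-Eb1 at 441 CPM, against 7851 and 2591 CPM in the 17 members with 3. With the 74 members alone the log2 ratio of H2-Eb1 over microglia was 4.22 in place of 5.26, and that of H2-Aa 4.26 in place of 5.20. H2-DMa, a chain of the peptide loading factor, was called lower from the ratios in libraries 3 and 4. Over all libraries it was at 111 against 195 CPM, a smaller difference than the call required. Ctss, cathepsin S, was lower as well, at 1641 against 6100 CPM. H2-Aa was found in 20 of the 91 cells. The 4 higher genes together reached 1% of the UMIs or more in 12 members and stayed under 0.1% in 70. Dendritic-marked cells, whose definition required at least 1%, had 55107 CPM of the whole class II list, against 8213 CPM in the members. Of the 46 members with a Lyve1 UMI, 1 reached 1%, and of the 45 without, 11 did. The split was uneven by library. In library 3 it was 1 of 16 with a Lyve1 UMI and 2 of 14 without, and in library 4 it was 0 of 15 and 4 of 9. Library 5 had 0 of 5 and 3 of 9, and library 6 had 0 of 7 and 1 of 10. The 12 cells lay in libraries 1, 3, 4, 5 and 6 (1, 3, 4, 3 and 1 cells), and the highest value was 6.96% in library 1. A missing Lyve1 UMI in a shallow cell does not show that the gene was off, so the split is a description.

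**Figure D3:**
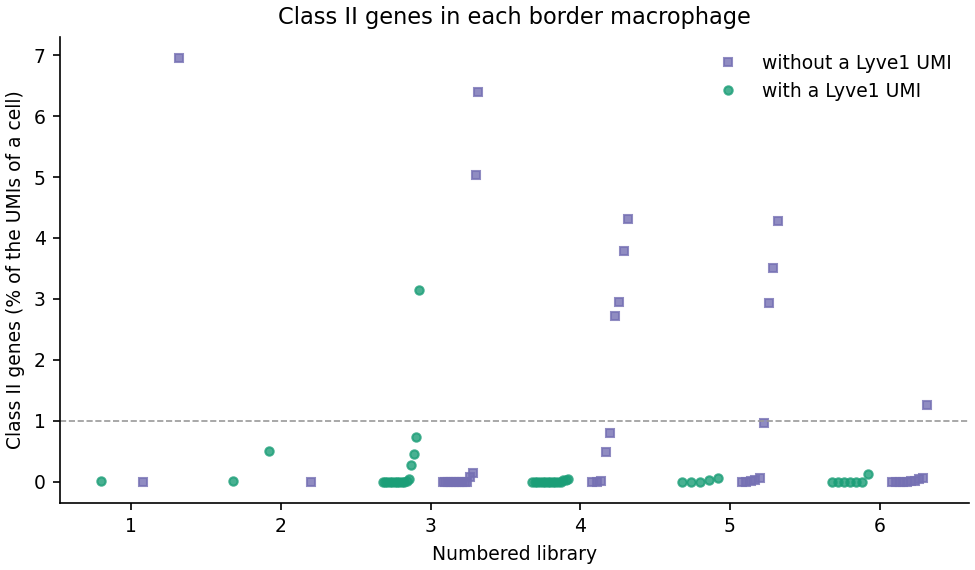
Share of the UMIs of each border macrophage that came from 4 class II genes (y axis, percent) by numbered library (x axis), with a Lyve1 UMI (circles) and without (squares); points are spread sideways in order of value and the dashed line is at 1%. Of the 12 cells at 1% or more, 11 lack a Lyve1 UMI.

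Complement showed another split. C1qa, C1qb and C1qc, the chains of C1q, were at 6125, 5659 and 3889 CPM in border macrophages and at 10416, 9943 and 6557 CPM in microglia, with log2 ratios of -0.91, -0.89 and -0.77. C5ar1, the C5a receptor (740 against 221 CPM), C4b (150 against 3.29 CPM) and Cfp, properdin (109 against 1.21 CPM), were higher, and Itgam, the complement receptor chain CD11b, was lower (148 against 565 CPM). Of the 12 scavenger and endocytic receptors tested, 6 were higher and 2 lower. Cd36 was at 163 CPM against 0.189 CPM and Msr1 at 157 against 15.4 CPM, whereas Mertk, a receptor for apoptotic cells, was at 196 against 487 CPM. Interferon-stimulated genes had 4 of 7 higher and none lower, Ifitm3 being at 652 CPM against 34.1 CPM. Both metallothioneins tested, Mt1 and Mt2, were higher, at 2397 against 363 CPM and 230 against 15.7 CPM.

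Iron genes had 3 of 11 higher and none lower. These were Fth1, Blvrb and Cp, and Fth1 lost its call (log2 ratio of 1.14 and then 0.77) when members with a monocyte gene were left out. Cp, the ferroxidase ceruloplasmin, was at 163 CPM against 4.21 CPM, and Blvrb, a biliverdin reductase, at 397 against 63.5 CPM. Of 12 transcription factors of macrophages tested, Cebpb was higher (1647 against 677 CPM) and 4 were lower, among them Irf8 (220 against 493 CPM). NF-kB feedback genes had 4 of 11 higher and 1 lower, growth factors, proteases and clotting regulators 4 of 10 higher and 3 lower, and glycolysis and hypoxia genes none of 13 higher and 3 lower. Igf1, insulin-like growth factor 1, was at 163 CPM against 0.923 CPM. Of 7 monocyte genes outside the rule that were tested, 5 were higher, Lyz2 and Vim among them, against 3 of 3 without members that had a monocyte gene. Microglia-marked cells held 261 CPM of this whole list, most of it Lyz2. Most of the 7 genes thus passed the filter only through the members, so these counts are a description. Thbs1, thrombospondin 1, lost its call without members that had a monocyte gene (log2 ratio of 1.49 and then 0.49). Growth factors then had 3 of 7 higher and 3 lower, and NF-kB feedback genes 6 of 11 higher and none lower. The NF-kB genes that changed call hardly moved, with log2 ratios of 0.96 and then 1.02 (Nfkbid), 0.99 and then 1.03 (Cd83), and -1.04 and then -0.98 (Icam1). Among markers of other cell types, 2 of 3 haemoglobin genes and the pericyte gene Vtn were higher, but single cells carried most of their UMIs in the members (97.2% for Hba-a1, 99.3% for Hbb-bs and 87.0% for Vtn). The cell with haemoglobin genes and the cell with pericyte genes were different cells of library 3. None of 6 oligodendrocyte, 3 astrocyte and 1 endothelial gene tested was higher.

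**Figure D4:**
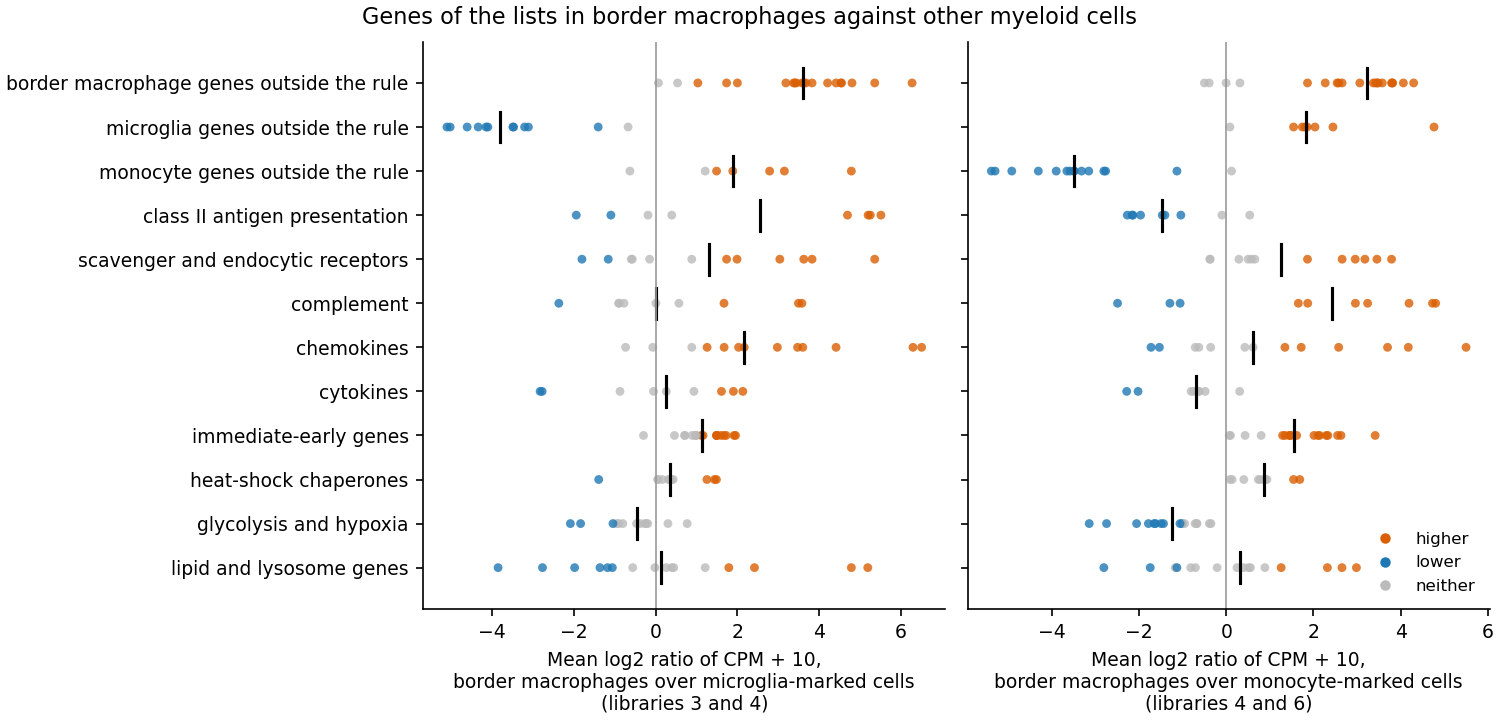
Mean log2 ratio of CPM + 10 (x axis) of each tested gene of 12 lists (rows), border macrophages over microglia-marked cells (left) and over monocyte-marked cells (right); orange is called higher, blue lower and grey neither, and the black bar is the median of the list. Of the border macrophage genes outside the rule, 18 of 20 lie at or above 1 on the left and 16 of 20 on the right.

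The second comparison was with monocyte-marked cells, in libraries 4 and 6, which held 24 and 17 members and 84 and 141 monocyte-marked cells. Of 3306 genes tested, 561 (17%) were higher and 372 (11.3%) lower in border macrophages, with a median log2 ratio of all genes of 0.14. The balance turned with every cell thinned to 1000 UMIs, where 715 genes were higher and 754 lower. Without members that had a monocyte gene, 641 of 3389 genes (18.9%) were higher and 504 (14.9%) lower. Of the 20 border macrophage genes outside the rule, 16 were higher and none lower. Of 15 monocyte genes outside the rule, 14 were lower and none higher. Both kinds were defined by their markers, so such directions describe the cells and do not test the rule. The monocyte-marked cells could also include cells that met all conditions for border macrophages but the one on monocyte genes.

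The highest ratios belonged to Vcam1, Ccl12, C1qa, Fcrls, C1qc, Gas6, Pmp22 and C1qb. Vcam1, an adhesion molecule, was at 608 CPM in library 4 and 611 CPM in library 6, against 0 and 1.36 CPM in monocyte-marked cells. C1qa was at 5409 and 6609 CPM against 60.6 and 641 CPM. Gas6, a bridge between receptors and apoptotic cells, was at 280 and 380 CPM against 6.06 and 8.18 CPM. The monocyte-marked cells of library 6 thus held more C1qa than those of library 4, and the ratios in library 6 were the smaller ones for each of the C1q chains.

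The lowest ratios belonged to Hp, S100a4, S100a6, Napsa, Tmsb10, Ifitm6, S100a11 and Slpi. Hp, haptoglobin, had no UMI in any member and 450 CPM in monocyte-marked cells. S100a4 and S100a6, calcium-binding proteins of recruited myeloid cells, were at 0 in the members of library 4 and at 116 and 561 CPM in those of library 6, where all of their UMIs lay in the 6 cells with a monocyte gene. Slpi was at 0 in the members of library 4, and in library 6 it was at 734 CPM in members and 760 CPM in monocyte-marked cells. Its 89 UMIs in library 6 came from 2 cells, both with a monocyte gene, and 1 of them held 70.8%. Glycolysis and hypoxia genes were lower in 10 of 16 cases and higher in none (Pkm at 307 against 1517 CPM over all libraries). Class II genes were lower in 7 of 9 cases. Cytokines were lower in 2 of 8 cases (4 of 8 without members that had a monocyte gene), among them Il1b at 769 against 3378 CPM over all libraries. Immediate-early genes were higher in 14 of 18 cases and lower in none. Chemokines were split: Ccl12, Ccl7, Ccl24, Ccl2 and Ccl3 were among the 6 higher ones, and Ccl6 and Ccl9 were the 2 lower ones. Cxcl2 was not called, and over all libraries it was at 5670 CPM in members and 10150 CPM in monocyte-marked cells. Without members that had a monocyte gene, 5 chemokines were lower, Cxcl2 among them (log2 ratio of -1.06).

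The other lists ran as follows against monocyte-marked cells. Complement genes were higher in 7 and lower in 3 of 10 cases, and scavenger and endocytic receptors higher in 6 of 12 and lower in none. Of the 8 microglia genes tested, 7 were higher, and 5 without members that had a monocyte gene, where Cx3cr1 and Sparc lost the call. Lipid and lysosome genes were higher in 4 and lower in 3 of 16 cases (6 lower without those members, Spp1 among them), growth factors, proteases and clotting regulators higher in 6 and lower in 6 of 14, and iron genes higher in 3 and lower in 3 of 13 (6 lower without members that had a monocyte gene, Fth1 and Hmox1 among them). Transcription factors were higher in 5 and lower in 2 of 13 cases (3 and 2 without those members), NF-kB feedback genes higher in 3 and lower in 1 of 13, heat-shock chaperones higher in 2 of 12 (4 without those members), interferon-stimulated genes higher in 1 and lower in 2 of 8 (0 and 4 of 7 without those members), and both metallothioneins were higher. The 6 oligodendrocyte genes tested were also higher, and 1 cell carried 84% of the UMIs of the oligodendrocyte list in the members. Neither proliferation gene tested was called in the comparison with microglia. Against monocyte-marked cells Stmn1 was called higher only without those members, but its log2 ratio was close either way (1.21 with them and 1.45 without).

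Members were then compared between libraries. A gene was called when its highest library was at least 3 times its lowest, their exact Poisson intervals did not overlap, the highest held at least 50 CPM and 20 UMIs, and no cell carried over 25% of its UMIs there. Between libraries 3 and 4, the pair with at least 20 members, 22 of 1203 genes (1.83%) were called. None of these 22 was called with every cell thinned to 1000 UMIs, where 4 other genes were. Insig1, a regulator of sterol synthesis, was the furthest apart, at 15.8 CPM in library 3 and 194 CPM in library 4. Wfdc17 was at 982 and 267 CPM and Nfkbid, an NF-kB inhibitor, at 166 and 548 CPM. Over the 4 libraries with at least 10 members (3, 4, 5 and 6), 146 of 1326 genes (11%) were called, with 51 called without library 6 and 34 with every cell thinned (18 of them among the 146). The numbers of genes tested without library 6 and with thinning were not recorded. Thinning leaves fewer genes with the 20 UMIs that a call needs. Of the 146 genes, library 6 was the highest for 53 and the lowest for another 53.

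The 20 genes with the largest ratio between the 4 libraries were Ccdc152, Ccl2, Tspan4, Pkm, Mndal, Ppp1r14b, Pgk1, Ftl1-ps1, Dbp, Fli1, Hmgb2, Phb2, H2-T23, Fubp1, Bnip3l, Bax, Klf7, Aprt, Prelid1 and Cuedc2, with ratios of 13.8 down to 6.18. Ccl2 had the highest level of them. It was at 2138, 4647, 1384 and 396 CPM in libraries 3 to 6, and at 2039, 4839, 1624 and 241 CPM in members without a monocyte gene, so library 4 was highest and library 6 lowest either way. In microglia-marked cells of libraries 4 and 6 the ratio of Ccl2 was 3.36, against 11.7 in members. Ccl2 was carried by 17 of 24 cells in library 4 and 10 of 17 in library 6.

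Of the 18 immediate-early genes tested over libraries 3 to 6, 8 were called, and library 6 was the lowest of these libraries for 7 of them. Ier3, also called, was highest in library 6 (2525 CPM). Zfp36, which destabilises cytokine mRNA, was at 2748, 2945, 1495 and 528 CPM in libraries 3 to 6, and at 706 CPM in library 6 without the cells that had a monocyte gene. In microglia-marked cells of libraries 4 and 6 Zfp36 was at 867 and 340 CPM, a ratio of 2.55 against 5.58 in members. Btg2 was at 2859, 3065, 2480 and 561 CPM, and at 930 CPM in library 6 without these cells. In the 81 cells without a monocyte gene 95 of 996 genes (9.54%) were called, 5 of the 18 immediate-early genes among them (Ier2, Dusp1, Nr4a1, Zfp36 and Btg2). Heat-shock genes had 4 of 12 called, and Hsp90aa1 was highest in library 5, at 4260, 2404, 10319 and 3507 CPM in libraries 3 to 6. Microglia-marked cells differed for this gene as well, by 2.67 times between libraries 5 and 4.

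The high values of library 6 divided into those that stayed and those that dropped when its 6 cells with a monocyte gene were left out. These 6 cells were deeper, with a median of 8435 UMIs against 5040 in the other 11, and held 63113 UMIs together against 58084. The part of depth in which cells had a monocyte gene detected was not tested. Lgals1 was at 562, 447, 365 and 1766 CPM in libraries 3 to 6 and was at 2049 CPM in the other 11 cells of library 6. Over all members it was at 767 CPM, and at 465 CPM without library 6. Cd68, a lysosomal glycoprotein, was at 1238 CPM and then 1584 CPM, and Wfdc17 at 1320 and then 1911 CPM. Pkm, pyruvate kinase, was at 103, 314, 77.5 and 759 CPM in libraries 3 to 6, and at 106, 248, 64.9 and 258 CPM without cells that had a monocyte gene. In microglia-marked cells Pkm was also higher in library 6 than in library 5, at 557 and 154 CPM. Gapdh was at 475, 868, 410 and 1857 CPM and then at 455, 759, 429 and 930 CPM. In microglia-marked cells of libraries 6 and 5 it was at 1506 and 608 CPM. Without members that had a monocyte gene, the values of libraries 4 and 6 rested on 107 and 54 UMIs of Gapdh and on 35 and 15 UMIs of Pkm, too few to order the libraries. Of 11 glycolysis and hypoxia genes tested 5 were called (Pkm, Pgk1, Aldoa, Gapdh and Tpi1), and without such members 3 passed the minimum level and none of these was called. Symbols that 2 features share, Aldoa among them, were counted from the first feature and are uncertain.

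Fth1, ferritin heavy chain, dropped in library 6. It was at 6319, 10557, 7219 and 22047 CPM in libraries 3 to 6, and at 6328, 6315, 7468 and 6387 CPM in members without a monocyte gene. In library 4, 1 cell carried 43.7% of its UMIs, and in library 6, 1 cell carried 29.0%. Spp1, osteopontin, was at 2814 CPM in library 6 and at 68.9 CPM without these cells, and Lgals3, galectin 3, at 1411 CPM and 0. In library 6, 1 cell held 51.0% of the UMIs of Spp1 and 1 cell 33.9% of those of Lgals3, so Fth1, Spp1 and Lgals3 were over the limit of 25% per cell and were not called between libraries. The 6 cells held 5340 CPM of Spp1, 2709 CPM of Lgals3 and 887 CPM of Mrc1, and the other 11 held 2531 CPM of Mrc1. All 6 markers were lower in the 6 cells, from Lyve1 (63.4 against 396 CPM) and Cd163 (111 against 430 CPM) to F13a1 (697 against 792 CPM). Lyve1 and Cd163 rested on 4 and 7 UMIs there. Stab1 was also lower (364 against 1326 CPM), and Vim was higher (1426 against 86.1 CPM). The name border macrophage is thus less secure for these 6 cells. Hmox1, haem oxygenase, took another course. It was at 1243, 1449, 2148 and 1857 CPM in libraries 3 to 6 and was not called, whereas in members without a monocyte gene it was at 1251, 1369, 2416 and 344 CPM, with library 6 lowest, and was called.

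**Figure D5:**
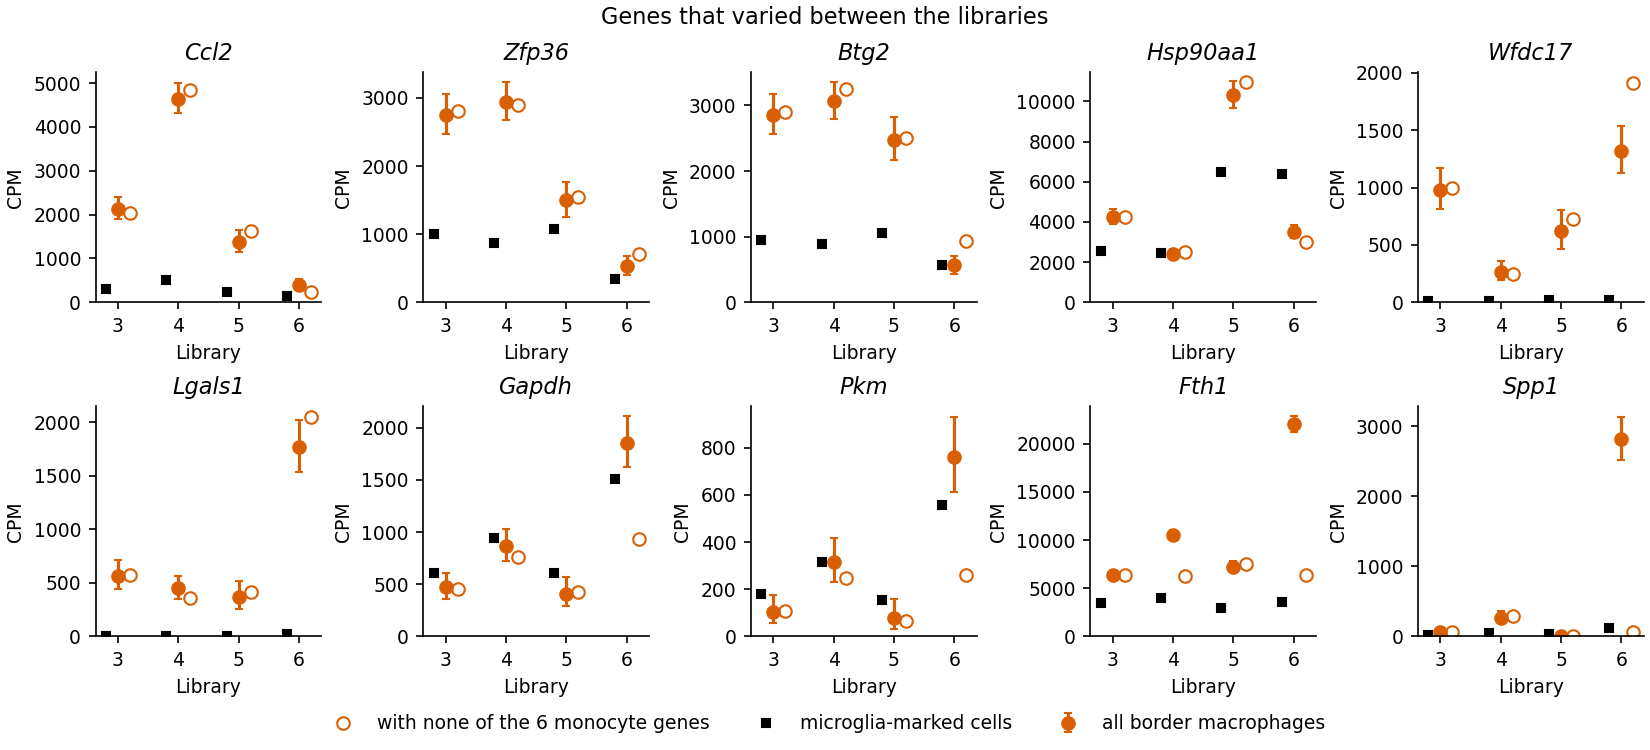
Levels of 10 genes (y axes, CPM from 0) in numbered libraries 3 to 6 (x axes), over all border macrophages (filled circles with exact 95% Poisson intervals), over those with none of the 6 monocyte genes (open circles) and over microglia-marked cells (squares). The value of Fth1 in library 6 moves from 22047 to 6387 CPM when cells with a monocyte gene are left out, while that of Lgals1 moves from 1766 to 2049 CPM.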

How the data were processed

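Deposited values were whole-number UMI counts per gene and barcode: the authors counted reads with Cell Ranger (version 5, header 5.0.1, build mm10 per the labels) and aggregated the 6 libraries to even out sequencing depth, and the matrix keeps all barcodes. Cells were filtered as in the report, which follows the authors' limits on genes and mitochondrial UMIs and adds the UMI minimum. Members and gene lists were chosen with earlier results of these data known. Counts were summed per library and cell kind, scaled to CPM with 10 CPM added before logs, and compared within libraries (Python 3.11.15, NumPy 2.4.6, SciPy 1.17.1, pandas 2.3.3); the 17 genes of the rule were left out. No statistical test was run. Doublets were called with Scrublet in Scanpy 1.11.5 at an expected 6%. The calling rules were tested on simulated counts. Named genes were all rule genes, list genes of at least 50 CPM, the 12 highest and 8 lowest ratios against microglia, 8 and 8 against monocytes (200 CPM or more), and the 20 largest ratios between libraries. Genes named beyond these, and the division of library 6, were chosen after values were seen. Free RNA was not subtracted. Alternatives covered thresholds, filters, pseudocount, thinning and left-out libraries. Some genes are not reported here.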

Additional observations from a re-analysis of the deposited data

Results flagged for a closer look

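Cells below the depth limit held further candidates. Of 1683 barcodes with at least 500 but fewer than 1500 UMIs that passed the limits on genes and mitochondrial UMIs, 25 met the other conditions of the rule, and 18 of them were in library 3. These shallow barcodes are in none of the comparisons. In library 3, where the median depth of members was lowest, 30 members compare with these 18 barcodes, whereas library 6 had 17 members and 1 such barcode.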

How the results depend on the processing

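No paired analysis was possible because nothing ties the library numbers to a side, time or mouse, and each group has 1 library. The number of members was 91 and ranged from 74 (at least 4 markers detected) to 103 (minimum of 1000 UMIs) under changes of the rule. With a filter of 20 CPM, 1100 genes were lower than in microglia and 1025 higher than in monocyte-marked cells, and with 100 CPM these were 341 and 303, since fewer or more genes were tested. With every cell thinned to 1000 UMIs, 1031 genes were lower than in microglia, 754 lower than in monocyte-marked cells, 4 differed between libraries 3 and 4 (0 of the 22) and 34 among 4 libraries (18 of the 146). The cause was not tested. Numbers of genes tested were not recorded for thinning or for left-out libraries, so those counts have no shares. Without members that had a monocyte gene, 95 of 996 genes differed among 4 libraries, and 61 of these were among the 146. Using libraries with at least 10 cells of both kinds, chosen after seeing the data, 267 genes were higher and 544 lower than in microglia. Leaving out each library in turn gave 61 to 88 members, 318 to 397 genes higher and 629 to 743 lower than in microglia, 536 to 784 higher and 305 to 610 lower than in monocyte-marked cells, and 51 (without library 6) to 146 genes differing among the 4 libraries, with 95 without library 4. The count of 610 was without library 6, which leaves library 4 alone. The count between libraries 3 and 4 (22) uses no other library and cannot be had without either. The 36 named genes kept their direction in all 776 repeats and 3, all of Slpi, lost the call. These genes were picked for the most extreme ratios, and the repeats reused mostly the same cells. Their stability therefore says little about the other called genes. Of 36 gene levels over all members, Pkm, Spp1, Lgals3 and Lgals1 moved by over 1.5 times without library 6, Ccl2 and Ccl7 without library 4, and Fth1, Pkm, Spp1 and Lgals3 without members that had a monocyte gene. Depth limits genes of low level, since the members held 16524 to 149764 UMIs per library.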
